A study of Mus musculus with 5 samples.

Results

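The receptors described here are 9 through which astrocytes sense noradrenaline and other neuromodulators: Adra1a, Adra1b, Adra2a and Adrb1 for noradrenaline, P2ry1 and Adora1 for purines, Ntsr2 and Ednrb for the peptides neurotensin and endothelin, and Grm3 for glutamate. They were chosen by gene symbol, with no measured value in the rule, though earlier results of these data were known. They make up 9 of the 35976 genes counted. All 9 passed the low-count filter that left 15532 genes for testing. The libraries came from ACSA-2-selected cells of the amygdala (basolateral, per the series' design text) of mice with the genotype Ccr2::CreERT2/+;DTR/+, which carry 1 copy each of a tamoxifen-inducible Cre recombinase driven from Ccr2 and of the diphtheria toxin receptor. Ccr2 drives the Cre in any CCR2-expressing cell, not in monocytes alone. There were 3 libraries labelled DTx (diphtheria toxin), called DTx-labelled libraries 5A, 6A and 7A, and 2 saline libraries, called saline replicates 1 and 2. Mice of both groups received tamoxifen, 18 days of tube restraint, fear conditioning and extinction, so no unstressed group stands beside them. The study's stated question was what monocytes contribute to the effects of chronic stress. The remaining saline library of the stated design is not analysed here.

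All 9 receptors are coupled to G proteins. As background, receptors of the alpha-1 adrenergic class (Adra1a and Adra1b) and P2ry1 act through Gq and phospholipase C, which releases calcium from internal stores, and noradrenaline released during arousal is a well-known trigger of astrocyte calcium signals. Adra2a, Adora1 and Grm3 act through Gi and lower cyclic AMP, whereas Adrb1 acts through Gs and raises it. Ednrb and Ntsr2 bind peptides and are known as receptors rich in astrocytes.

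Total counts were 15961220 to 18708138 in the DTx-labelled libraries and 20577672 and 23720299 in the saline libraries. All 15 astrocyte markers searched had counts, and their summed level was 28184 to 32654 CPM (counts scaled to library size by the TMM method) in the DTx-labelled libraries and 27582 to 29186 CPM in the saline libraries. The 9 oligodendrocyte markers summed to more, 42180, 43462 and 88858 CPM in DTx-labelled libraries 5A, 6A and 7A and 59012 and 90931 CPM in saline replicates 1 and 2, so oligodendrocyte RNA was abundant in every library. Of the tested markers of ependyma and choroid plexus, Ccdc153, Tmem212, Rarres2 and Folr1 were highest in DTx-labelled library 5A and saline replicate 1. Foxj1 stood out in saline replicate 1 alone, at 79.4 CPM, against 18.8 CPM for 5A. Clic6 peaked in 6A, at 92.7 CPM, and was at 67.8 CPM in 5A but only 9.33 CPM in saline replicate 1. Ccdc153, a gene of motile cilia, was at 39.4, 2.43 and 0.057 CPM in DTx-labelled libraries 5A, 6A and 7A and at 41.7 and 0.538 CPM in saline replicates 1 and 2. Ccr2 had 54, 4 and 4 counts in DTx-labelled libraries 5A, 6A and 7A and 0 counts in both saline libraries, the reverse of what the label would lead to, so directions below follow the labels only. Summed over 4 Y-linked genes, the level was 185.4 to 201.2 CPM in the DTx-labelled libraries and 0.0897 and 0.185 CPM in the saline libraries, and Xist was at 0 to 0.159 CPM in the DTx-labelled and 128.9 to 172.6 CPM in the saline libraries. Over all genes, library 7A was nearer to saline replicate 2 than to its own group: the chi-square per degree of freedom between their counts was 17.7, against 58.4 and 60.7 between 7A and the other DTx-labelled libraries and 60.0 between the saline libraries. Treatment and sex-chromosome state cannot be told apart in any value that follows. Nor can a bulk measurement tell fewer cells of a type from less RNA per cell.

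The sequences just upstream of 4 of these genes are shown because these windows end just before the first base of the gene in RefSeq and the genes differ in their values between the groups: P2ry1, Adrb1 and Grm3 were lower in every DTx-labelled library than in both saline libraries, and Adra2a was not. Each window holds the 250 bases before the RefSeq start (GRCm38.p6), written in the direction of transcription. The P2ry1 window is chr3:61002535-61002784 on the plus strand, the Adrb1 window chr19:56721867-56722116 on the plus strand, the Grm3 window chr5:9725353-9725602 on the minus strand and the Adra2a window chr19:54045009-54045258 on the plus strand. Capitals mark 4 motifs on either strand, namely the TATA box as TATAAA, the box known as CCAAT, the GC box as GGGCGG and the core of the cyclic AMP response element as TGACG.
P2ry1: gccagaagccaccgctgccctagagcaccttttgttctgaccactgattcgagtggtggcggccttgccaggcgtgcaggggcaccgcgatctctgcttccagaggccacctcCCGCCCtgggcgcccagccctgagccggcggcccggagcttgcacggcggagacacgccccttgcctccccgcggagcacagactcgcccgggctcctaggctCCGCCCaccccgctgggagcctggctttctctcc
Adrb1: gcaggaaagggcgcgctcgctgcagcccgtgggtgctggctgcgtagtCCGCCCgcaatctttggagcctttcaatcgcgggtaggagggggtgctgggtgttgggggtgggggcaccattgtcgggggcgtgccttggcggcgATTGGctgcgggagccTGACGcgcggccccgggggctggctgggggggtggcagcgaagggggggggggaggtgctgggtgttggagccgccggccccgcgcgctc
Grm3: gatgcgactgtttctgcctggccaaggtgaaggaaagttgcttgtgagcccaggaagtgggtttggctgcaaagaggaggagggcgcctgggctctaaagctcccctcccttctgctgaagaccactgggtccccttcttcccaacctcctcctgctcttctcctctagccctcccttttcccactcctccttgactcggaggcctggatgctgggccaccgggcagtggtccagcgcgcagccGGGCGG
Adra2a: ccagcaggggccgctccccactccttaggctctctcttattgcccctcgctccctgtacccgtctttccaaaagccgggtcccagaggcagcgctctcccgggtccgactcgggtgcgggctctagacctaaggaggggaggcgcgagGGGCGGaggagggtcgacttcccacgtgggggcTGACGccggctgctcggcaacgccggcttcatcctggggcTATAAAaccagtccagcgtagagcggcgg

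Adra2a was the 1 member with a TATAAA box, which began 29 bases before the start and is present in 12.4% of 32851 upstream windows of this length. A TGACG core was found in the windows of Adra2a, Adrb1 and Ednrb, against 17.8% of all windows, and a GC box in 6 of the 10 member windows, against 32.7%. RefSeq gave 10 windows for 8 of the 9 receptors, with 2 each for Adra1b and Adora1. Not all lie before the gene spans printed below. The Ednrb window and the more downstream windows of Adra1b and Adora1 lie inside those spans. The Ntsr2 window and the more upstream window of Adra1b reach a short way into them. Adra1a was not matched. Base composition ran from 74% GC with 24 CpG in Adrb1 to 41.6% GC with 3 CpG in the more upstream window of Adra1b, against medians of 52.4% and 6 CpG over all windows. The windows of Ntsr2 and Ednrb held 55.2% and 56.8% GC, and Ntsr2 was the 1 member with the STAT motif TTCNNNGAA, which 7.02% of all windows hold. The NFI motif TTGGC, which can overlap the box CCAAT on the opposite strand, was in 5 of the 10 member windows and in 41.5% of all windows. A match to these letters is a description and not a site.

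Per length of exon, the 9 receptors fell into an abundant and a scarce tier. Ntsr2 stood at 417.3 ± 57.4 CPM per kb (SD, n = 3) in the DTx-labelled libraries and 335.5 ± 84.0 CPM per kb (SD, n = 2) in the saline libraries, rank 64 in DTx-labelled and 80 in saline libraries among the 14348 tested genes that had an exon model. Ednrb followed at 184.4 ± 49.5 CPM per kb (SD, n = 3) in DTx-labelled and 132.8 ± 39.9 CPM per kb (SD, n = 2) in saline libraries, rank 161 in DTx-labelled and 240 in saline libraries. Grm3 was at 59.2 ± 3.84 CPM per kb (SD, n = 3) in DTx-labelled and 75.2 ± 4.54 CPM per kb (SD, n = 2) in saline libraries, and Adora1 at 44.6 ± 8.18 CPM per kb (SD, n = 3) in DTx-labelled and 47.2 ± 3.97 CPM per kb (SD, n = 2) in saline libraries. Neighbours in this upper tier did not overlap in either group. The scarce tier held P2ry1 and the 4 adrenergic receptors. P2ry1 was at 2.62 ± 1.03 CPM per kb (SD, n = 3) in DTx-labelled and 4.08 ± 0.102 CPM per kb (SD, n = 2) in saline libraries. The adrenergic receptors averaged 0.848 to 1.91 CPM per kb in the DTx-labelled libraries and 1.55 to 2.06 CPM per kb in the saline libraries. Within the saline group the 4 adrenergic receptors overlapped from neighbour to neighbour, so their order there is not resolved. In the DTx-labelled libraries Adra2a lay just above Adra1a, with a lowest value of 1.67324 against a highest value of 1.66742 CPM per kb, and the other neighbours of the scarce tier overlapped.

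**Figure D1:**
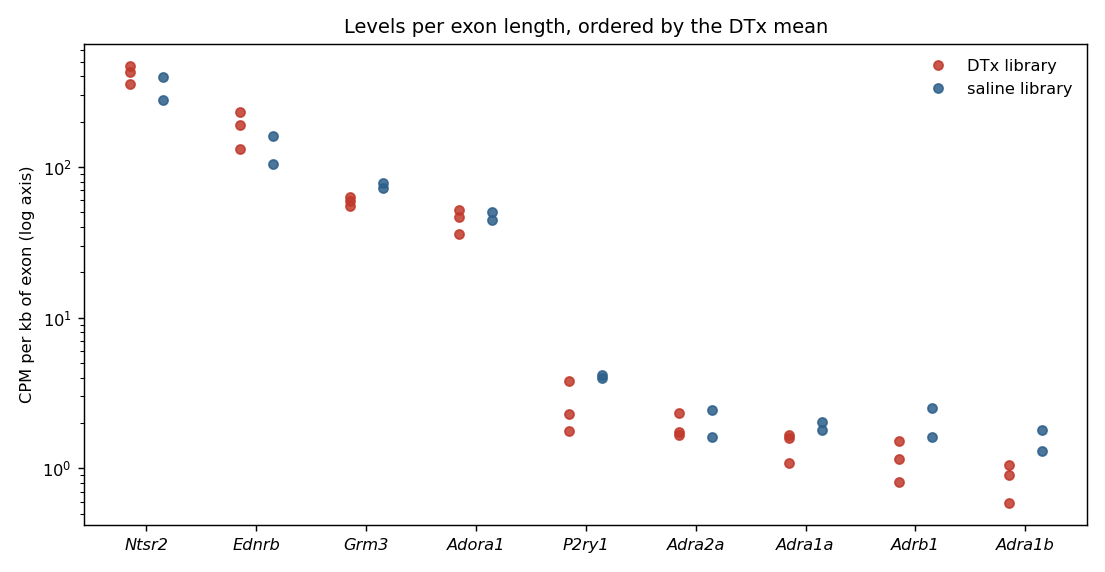
Level of each receptor per kb of exon (CPM per kb, log axis), with 1 point per library, DTx-labelled libraries in red and saline libraries in blue. Ntsr2, Ednrb, Grm3 and Adora1 lie at 35.7 CPM per kb or above in every library, and P2ry1 and the adrenergic receptors at 4.15 CPM per kb or below.

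No receptor passed the threshold between the groups. With edgeR's quasi-likelihood test 0 of the 9 had an adjusted p under 0.05, against 0.0322% of all genes tested (0.0258% with DTx-labelled libraries higher, 0.00644% with them lower). Of the 9, 1 (Adra1b) had an unadjusted p under 0.05 with the DTx-labelled libraries lower, against 2% of all genes in that direction, 4.29% in the other and 6.28% in either. DESeq2 and limma-voom also called 0 of the 9, against 0.715% and 0.0322% of all genes. At an unadjusted p under 0.05 they had 3 and 2 of the 9, against 1085 and 973 of 15532 genes tested. Of the 9 receptors, 7 had a log2 fold change below 0, as did 49.7% of all genes, and the median log2 fold change was -0.35, against 0.0017 over all genes tested. With the mean of the microglia or of the neuron markers as a covariate the median of the 9 was -0.16 or -0.23. For 5 of the 9, namely Adra1a, Adra1b, Adrb1, P2ry1 and Grm3, every DTx-labelled library lay below every saline library, which 8.99% of all genes tested also showed. Of the 9, 0 were higher without overlap, against 12.1% of all genes (21.1% in either direction). The members were named with earlier results of these data known, so these counts describe the 9 genes and are not a test of them.

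**Figure D2:**
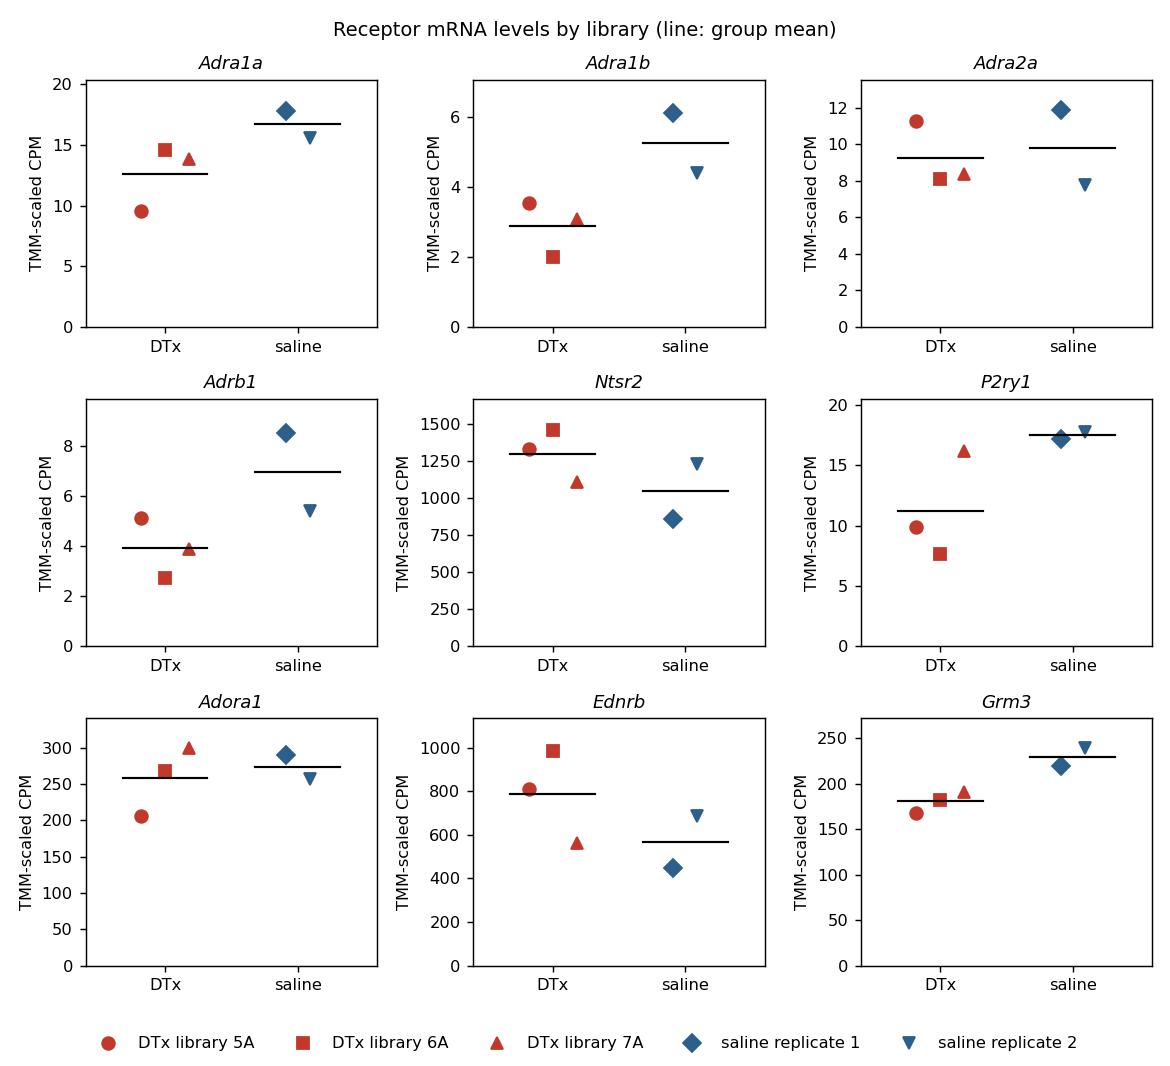
TMM-scaled CPM of each receptor by library, DTx-labelled libraries on the left and saline replicates on the right of each panel, with a line at each group mean (n = 3 and n = 2). In the panels of Adra1a, Adra1b, Adrb1, P2ry1 and Grm3 all red points lie below all blue points, whereas the points of Adra2a, Ntsr2, Adora1 and Ednrb overlap.

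Among the receptors for noradrenaline, Adra1b and Adrb1 differed most and Adra2a least. Adra1b, a Gq-coupled alpha-1 receptor (GRCm38 chromosome 11, 43774605 to 43901250), was at 3.54, 1.99 and 3.08 CPM in DTx-labelled libraries 5A, 6A and 7A, from 67, 32 and 54 counts, and at 6.09 and 4.39 CPM in saline replicates 1 and 2, from 132 and 98 counts. All 3 DTx-labelled values lay below both saline values, with library 6A the lowest. The log2 fold change was -0.87 ± 0.349 (SE; 95% interval -1.70 to -0.033; edgeR adjusted p = 0.789). Adrb1, the Gs-coupled beta-1 receptor (chromosome 19, 56722117 to 56725150), was at 5.13, 2.74 and 3.87 CPM in DTx-labelled libraries 5A, 6A and 7A and 8.54 and 5.42 CPM in saline replicates 1 and 2. The groups did not overlap, but library 5A came close to saline replicate 2. The log2 fold change was -0.83 ± 0.357 (SE; 95% interval -1.69 to 0.021; edgeR adjusted p = 0.796), and with 1 library left out it ran from -1.12 without saline replicate 2 to -0.47 without saline replicate 1.

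Adra1a, the other alpha-1 receptor measured (chromosome 14, 66635251 to 66771240), was at 9.51, 14.6 and 13.8 CPM in DTx-labelled libraries 5A, 6A and 7A and 17.8 and 15.6 CPM in saline replicates 1 and 2. Library 5A was the low one, and libraries 6A and 7A lay just under saline replicate 2. The log2 fold change was -0.40 ± 0.226 (SE; 95% interval -0.94 to 0.14; edgeR adjusted p = 0.802). With 1 library left out it ran from -0.52 without library 6A to -0.24 without library 5A, and it was -0.16 with the microglia and -0.58 with the neuron marker mean as a covariate. Adra2a, the Gi-coupled alpha-2 receptor (chromosome 19, 54045259 to 54048982), was at 11.3, 8.09 and 8.37 CPM in DTx-labelled libraries 5A, 6A and 7A and 11.9 and 7.76 CPM in saline replicates 1 and 2. Its high values came from library 5A and saline replicate 1, 1 from each group, and the groups overlapped. Its log2 fold change of -0.085 had a 95% interval of -0.73 to 0.56 (edgeR adjusted p = 0.955), which leaves room for a difference of either sign, and without saline replicate 1 the value was 0.25.

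Among other adrenergic receptor genes, Adra1d, Adra2b, Adra2c and Adrb3 had at most 13 counts in any library, too few to compare the groups. Markers of monocytes and border macrophages were highest in library 5A: the 10 genes of that list summed to 130.8, 17.8 and 52.3 CPM in DTx-labelled libraries 5A, 6A and 7A and 18.2 and 25.1 CPM in saline replicates 1 and 2. All 6 tested genes of the list had higher means in the DTx-labelled libraries (median log2 fold change 1.81), and Ly6c2 had 0 counts in each DTx-labelled library and 0 and 2 counts in saline replicates 1 and 2. Their part in the receptor values was not tested.

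Of the purine receptors, P2ry1 was lower in the DTx-labelled libraries and Adora1 was not separated. P2ry1, a Gq-coupled receptor for ADP (chromosome 3, 61002785 to 61008982), was at 9.88, 7.65 and 16.2 CPM in DTx-labelled libraries 5A, 6A and 7A and 17.2 and 17.8 CPM in saline replicates 1 and 2. Library 7A lay just below saline replicate 1, and libraries 5A and 6A lay well below. The log2 fold change was -0.64 ± 0.313 (SE; 95% interval -1.39 to 0.11; edgeR adjusted p = 0.797), and without library 7A it was -0.99 (adjusted p = 0.132). Libraries 5A and 6A were also the ones lowest in the summed level of oligodendrocyte markers. Mag, a myelin glycoprotein, was at 517.4 CPM in 5A, 505.3 CPM in 6A and 1150 CPM in 7A. Its saline values were 990.6 CPM for replicate 1 and 1340 CPM for replicate 2. Every marker of the list except Mobp had its lowest values in 5A and 6A. Mobp was lowest in saline replicate 1, at 4825 CPM, against 5211 CPM for 5A and 5073 CPM for 6A. With the mean of the 9 oligodendrocyte markers as a covariate, the log2 fold change of P2ry1 was -0.37 (edgeR adjusted p = 0.895). That covariate was chosen after seeing the data, and with the neuron marker mean instead the value was -0.14. The part of oligodendrocyte RNA in the P2ry1 values was not tested. Adora1, the adenosine A1 receptor that restrains cyclic AMP (chromosome 1, 134199215 to 134235457), was at 206.4, 268.2 and 299.3 CPM in DTx-labelled libraries 5A, 6A and 7A and 289.5 and 257.1 CPM in saline replicates 1 and 2. Its groups overlapped in both directions (log2 fold change -0.083 ± 0.199, SE; 95% interval -0.56 to 0.39; edgeR adjusted p = 0.942), and without library 5A or saline replicate 1 the value was 0.051 or 0.0025. In GENCODE, exons of P2ry1 overlap Gm37035 and exons of Adora1 overlap Mybph, both on the other strand, and with no statement on strand use in the counting, reads of these overlaps cannot be told apart.

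The peptide receptors were the 2 members with higher means in the DTx-labelled libraries. Ednrb, which binds endothelins (chromosome 14, 103814615 to 103844508), was at 810.5, 984.8 and 564.3 CPM in DTx-labelled libraries 5A, 6A and 7A and 445.9 and 686.8 CPM in saline replicates 1 and 2. Libraries 5A and 6A lay above both saline libraries and library 7A lay between them. The log2 fold change was 0.47 ± 0.3 (SE; 95% interval -0.24 to 1.19; edgeR adjusted p = 0.808). Ntsr2, the low-affinity neurotensin receptor (chromosome 12, 16653443 to 16660236), was at 1335, 1462 and 1109 CPM in DTx-labelled libraries 5A, 6A and 7A and 861.5 and 1232 CPM in saline replicates 1 and 2. It ordered the 5 libraries as Ednrb did, with library 6A highest and saline replicate 1 lowest (log2 fold change 0.31 ± 0.231, SE; 95% interval -0.24 to 0.87; edgeR adjusted p = 0.818). Saline replicate 1 was also the lowest in microglia markers, whose 14 genes summed to 491.9, 360.9 and 298.6 CPM in DTx-labelled libraries 5A, 6A and 7A and 138.2 and 306.7 CPM in saline replicates 1 and 2. With the mean of these markers as a covariate the log2 fold changes of Ednrb and Ntsr2 were 0.034 and -0.0098, and leaving out saline replicate 1 gave 0.19 and 0.076. Leaving out saline replicate 2 gave 0.82 for Ednrb and 0.60 for Ntsr2.

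Grm3, the Gi-coupled metabotropic glutamate receptor of astrocytes (chromosome 5, 9485236 to 9725352), had the narrowest range of the 9 over the libraries, 0.51 log2 units. It was at 168.2, 181.9 and 191.5 CPM in DTx-labelled libraries 5A, 6A and 7A, from 3182, 2925 and 3361 counts, and at 219.6 and 239.2 CPM in saline replicates 1 and 2, from 4756 and 5335 counts. The highest DTx-labelled library lay below the lower saline replicate, with a gap wider than the range within either group. The log2 fold change was -0.35 ± 0.145 (SE; 95% interval -0.69 to 0.00053; edgeR adjusted p = 0.789). It lay between -0.51 and -0.28 under every alternative setting run.

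**Figure D3:**
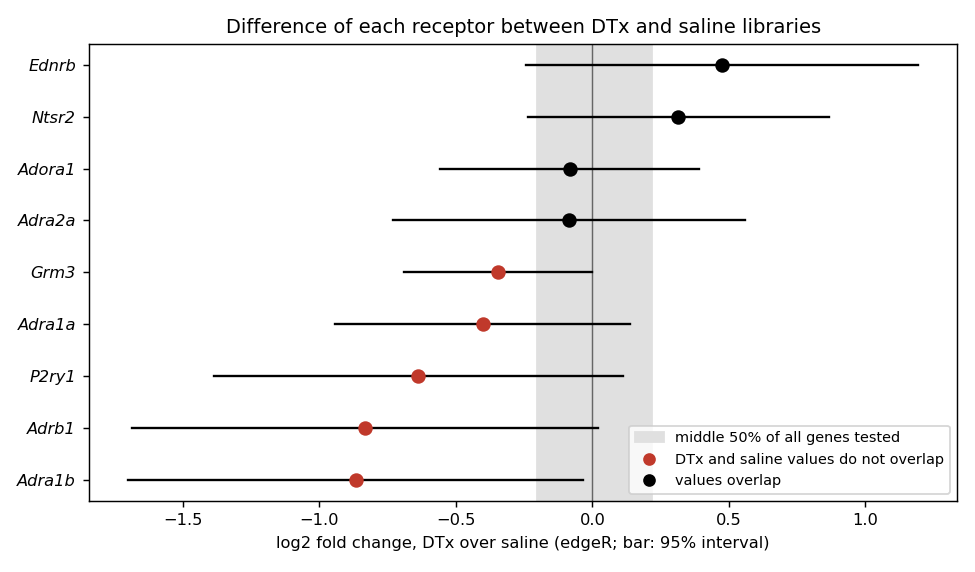
Log2 fold change of each receptor, DTx-labelled over saline, with its 95% interval from the edgeR fit (n = 3 and n = 2). The grey band runs between the quartiles of all genes tested, -0.20 and 0.22, and the red points mark the 5 receptors whose groups did not overlap, at -0.35 or below.

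Some receptors had similar profiles across the 5 libraries. Of the 36 pairs, Adra1b and Adrb1 were the most alike, with a root mean square difference of 0.0875 between their log2 CPM after each was centred on its mean over the 5 libraries. Ntsr2 and Ednrb came next, at 0.151. Adra1a, Adora1 and Grm3 lay between 0.179 and 0.192 of each other, whereas the nearest member to P2ry1 was at 0.338 and to Adra2a at 0.345. The least alike pair was Adrb1 and Ednrb, at 0.876. These 2 profiles run opposite to each other in library 6A and saline replicate 1: Adrb1 was 0.79 below its mean in library 6A and 0.82 above it in saline replicate 1, whereas Ednrb was 0.55 above and 0.59 below. All values share the same 5 libraries and their scaling, and they are given as a description.

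Adrb1 and Adra1b had the widest range over the libraries, 1.61 and 1.57 log2 units. Among 10750 genes with a mean of at least 5 CPM, the 3 closest to Adra1b were Ankrd44 at a root mean square difference of 0.0571, Adrb1 at 0.0875 and LOC108168966 at 0.089. The 3 closest to Adrb1 were Mfsd7b at 0.0943, Ankrd44 at 0.107 and LOC108168966 at 0.13, and Adra1b was below the level needed to be listed. Ankrd44 was at 9.94, 6.34 and 8.77 CPM in DTx-labelled libraries 5A, 6A and 7A and at 17.3 and 12.7 CPM in saline replicates 1 and 2, with an edgeR adjusted p of 0.789.

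**Figure D4:**
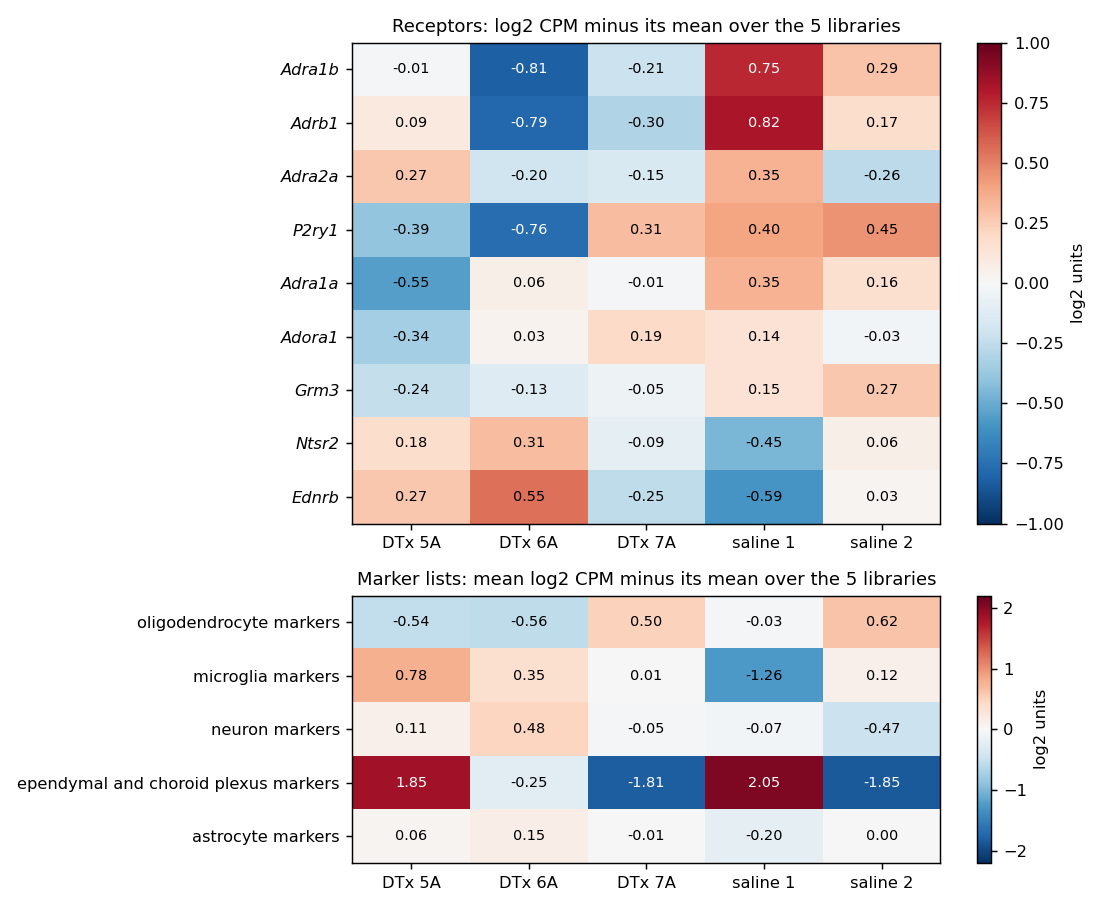
Centred log2 CPM of the 9 receptors (top) and centred mean log2 CPM of 5 marker lists (bottom) in each library, DTx-labelled libraries on the left, with the value printed in each cell. Adra1b and Adrb1 share a low in library 6A and a high in saline replicate 1, Ntsr2 and Ednrb run the other way, and the ependymal and choroid plexus list is high in library 5A and saline replicate 1, at 1.85 and 2.05.

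Library 5A and saline replicate 1 each gave the highest Adra1b, Adrb1 and Adra2a value of its group, and both were highest in the mean of the ependymal and choroid plexus marker list. That list, whose 8 genes all had counts, summed to 201.5, 132.4 and 44.6 CPM in DTx-labelled libraries 5A, 6A and 7A and 226.0 and 36.5 CPM in saline replicates 1 and 2. The sum of library 6A came mostly from Clic6, at 92.7 CPM, and Ttr, which defines choroid plexus, was at 0.693 CPM or less in every library. With the mean of its 6 tested genes as a covariate the log2 fold changes of Adra1b and Adrb1 were -0.84 and -0.79, close to the values without it. That mean was 4.42, 2.31 and 0.755 log2 CPM in DTx-labelled libraries 5A, 6A and 7A and 4.62 and 0.718 in saline replicates 1 and 2. A covariate spread so alike in both groups can move a group difference only little. The part of these cells in the receptor values was not tested. Neuron markers, 14 of 14 with counts, summed to 828.9 to 1123 CPM in the DTx-labelled libraries and 645.2 to 684.5 CPM in the saline libraries without overlap. With their mean as a covariate the log2 fold change of P2ry1 was -0.14, and those of Adra1b and Adrb1 were -0.72 and -0.79.

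Of the other genes of the same signalling routes, 0 passed edgeR's test in either direction. Of 16 tested relatives of the purine, neurotensin, endothelin and glutamate receptors, 9 had higher and 7 lower levels, DTx-labelled over saline, with a median log2 fold change of 0.26. Of the 16, 5 had an unadjusted p under 0.05, against 6.28% of all genes tested. Ntsr1, the high-affinity neurotensin receptor, averaged 1.39 ± 0.524 CPM (SD, n = 3) in DTx-labelled and 0.317 ± 0.122 CPM (SD, n = 2) in saline libraries. Ntsr1 had 15, 26 and 31 counts in libraries 5A, 6A and 7A and 5 and 9 counts in saline replicates 1 and 2. With saline counts below the filter's minimum of 10, it was tested through its DTx-labelled counts alone. Adora2a, the adenosine receptor coupled to Gs, averaged 2.43 ± 0.917 CPM (SD, n = 3) in DTx-labelled and 5.87 ± 1.84 CPM (SD, n = 2) in saline libraries. The presynaptic glutamate receptor gene Grm7 averaged 13.9 ± 2.93 CPM (SD, n = 3) in DTx-labelled and 21.7 ± 2.25 CPM (SD, n = 2) in saline libraries. P2ry6, a receptor for UDP found on microglia, averaged 2.38 ± 0.936 CPM (SD, n = 3) in DTx-labelled and 0.907 ± 0.303 CPM (SD, n = 2) in saline libraries. None of these 4, named for the smallest p of their list, overlapped between groups. In the list 3 of 16 were higher and 4 lower without overlap, against 12.1% and 8.99% of all genes tested. The filter needs its minimum in at least as many libraries as the smaller group holds. The 3 higher include Ntsr1 and Grm8, which had 11 and 7 counts in saline replicates 1 and 2. Neither would have passed on saline counts alone, so part of that count rests on the filter. The edgeR adjusted p was 0.778 for Ntsr1 and 0.789 for the other 3.

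Tested receptors for other neuromodulators mostly had higher levels in the DTx-labelled group, beside the higher neuron markers given above. Of the 46 genes of that list 25 were tested, 22 above and 3 below the saline group, with a median of 0.42. Over all genes tested, 7806 of 15532 had a log2 fold change above 0. Of the 25, 4 had an unadjusted p under 0.05, against 6.28% of all genes. A gene scarce in the saline libraries could pass the filter through the DTx-labelled libraries alone. How far this shaped the split was not tested. Cnr1, the cannabinoid receptor, averaged 5.73 ± 1.61 CPM (SD, n = 3) in DTx-labelled and 2.30 ± 0.273 CPM (SD, n = 2) in saline libraries (log2 fold change 1.31 ± 0.342, SE; edgeR adjusted p = 0.761). Oprl1, the nociceptin receptor, averaged 5.10 ± 2.05 CPM (SD, n = 3) in DTx-labelled and 2.34 ± 0.145 CPM (SD, n = 2) in saline libraries. The serotonin receptor gene Htr1a averaged 1.49 ± 0.540 CPM (SD, n = 3) in DTx-labelled and 0.502 ± 0.139 CPM (SD, n = 2) in saline libraries, and the muscarinic receptor gene Chrm5 averaged 0.936 ± 0.145 CPM (SD, n = 3) in DTx-labelled and 0.135 ± 0.190 CPM (SD, n = 2) in saline libraries. Chrm5 had 15, 15 and 19 counts in libraries 5A, 6A and 7A and 0 and 6 counts in saline replicates 1 and 2. Both saline counts are below the filter's minimum of 10, so Chrm5 was tested through its DTx-labelled counts alone. Htr1a had 22, 34 and 21 counts in libraries 5A, 6A and 7A and 13 and 9 counts in saline replicates 1 and 2. Its saline counts alone would not have passed the filter either. These 4 genes, named for the smallest p of the list, did not overlap between the groups. In the list 7 of 25 were higher and 0 lower without overlap, against 12.1% and 8.99% of all genes tested. The 7 include Chrm5, Htr1a and Drd2, which had 5 and 6 counts in saline replicates 1 and 2. None of them would have passed on saline counts alone, so part of that count rests on the filter. With the neuron markers as a covariate the log2 fold change was 0.76 for Cnr1, 0.42 for Oprl1, 0.82 for Htr1a and 3.76 for Chrm5, against 1.31, 1.117, 1.56 and 2.73 without it (edgeR adjusted p = 0.992 for each with the covariate, and 0.789 without it for the last 3).

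Of the genes that make, take up or break down the ligands, 18 of 22 had higher means in the DTx-labelled libraries, with a median of 0.25. Over all genes tested, 7806 of 15532 had a log2 fold change above 0. Of the 22, 2 had an unadjusted p under 0.05, against 6.28% of all genes. Maob, a monoamine oxidase of astrocytes, averaged 200.9 ± 22.1 CPM (SD, n = 3) in DTx-labelled and 149.2 ± 11.7 CPM (SD, n = 2) in saline libraries, without overlap. In the list 4 of 22 were higher and 0 lower without overlap, against 12.1% and 8.99% of all genes tested. Nts, the neurotensin precursor, was at 2.59, 2.30 and 1.48 CPM in DTx-labelled libraries 5A, 6A and 7A and 0.0923 and 0.941 CPM in saline replicates 1 and 2. The saline values of Nts came from 2 and 21 counts. Nts is among the 4 higher without overlap but would not have passed the filter on saline counts alone. Entpd2, which breaks down extracellular ATP, averaged 88.9 ± 10.9 CPM (SD, n = 3) in DTx-labelled and 69.7 ± 8.0 CPM (SD, n = 2) in saline libraries. Slc1a3, an astrocyte glutamate transporter, was at 4024, 5233 and 2075 CPM in DTx-labelled libraries 5A, 6A and 7A and 1671 and 2345 CPM in saline replicates 1 and 2, the same order of libraries as Ednrb and Ntsr2. The edgeR adjusted p was 0.789 for Maob and Nts and 0.797 for Entpd2 and Slc1a3.

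Downstream of the receptors, genes of the Gq and calcium release route were split evenly, with 11 of 21 higher, 10 lower, a median of 0.0017 and 2 at an unadjusted p under 0.05. The Gi, Gs and cyclic AMP genes were split 14 higher to 15 lower, with a median of -0.029 and 2 at an unadjusted p under 0.05. Over all genes tested, 6.28% had an unadjusted p under 0.05. Atp2a3, a calcium pump of the endoplasmic reticulum, averaged 3.29 ± 0.597 CPM (SD, n = 3) in DTx-labelled and 5.51 ± 0.243 CPM (SD, n = 2) in saline libraries. Orai3, a calcium entry channel, averaged 16.2 ± 2.50 CPM (SD, n = 3) in DTx-labelled and 11.8 ± 0.0435 CPM (SD, n = 2) in saline libraries. Prkar1b, a regulatory subunit of protein kinase A, averaged 38.3 ± 7.78 CPM (SD, n = 3) in DTx-labelled and 22.3 ± 6.16 CPM (SD, n = 2) in saline libraries. All 3 were without overlap and had an edgeR adjusted p of 0.789, and Adcy7, an adenylyl cyclase, shared both features at 1.68 ± 0.112 CPM (SD, n = 3) in DTx-labelled and 0.798 ± 0.178 CPM (SD, n = 2) in saline libraries. They were named for the smallest p of their lists. Without overlap, 2 of 21 Gq and calcium genes were higher and 1 lower, and 3 of 29 Gi, Gs and cyclic AMP genes were higher and 1 lower. The shares over all genes tested were 12.1% higher and 8.99% lower. Prkce averaged 33.6 and 21.6 CPM, Stim1 36.2 and 46.5 CPM and Gnaz 20.4 and 13 CPM in DTx-labelled and saline libraries, with overlap in all 3. Crem, a cyclic AMP responsive transcription factor gene, averaged 21.6 ± 1.45 CPM (SD, n = 3) in DTx-labelled and 16.6 ± 3.68 CPM (SD, n = 2) in saline libraries.

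The kinases, arrestins and RGS proteins that switch these receptors off had 19 of 25 means higher in the DTx-labelled libraries, with a median of 0.24. Over all genes tested, 7806 of 15532 had a log2 fold change above 0. Of the 25, 3 had an unadjusted p under 0.05, against 6.28% of all genes. Adrbk1, the kinase also known as GRK2 that marks activated adrenergic receptors for arrestin, averaged 42.9 ± 4.99 CPM (SD, n = 3) in DTx-labelled and 32 ± 8.68 CPM (SD, n = 2) in saline libraries, without overlap (edgeR adjusted p = 0.797). In the list 7 of 25 were higher and 1 lower without overlap, against 12.1% and 8.99% of all genes tested. Rgs17 averaged 17.5 ± 4.11 CPM (SD, n = 3) in DTx-labelled and 10.3 ± 1.08 CPM (SD, n = 2) in saline libraries, and Rgs10, which microglia also express, 12.5 ± 3.20 CPM (SD, n = 3) in DTx-labelled and 6.93 ± 2.56 CPM (SD, n = 2) in saline libraries, each with an adjusted p of 0.789. Rgs18 was at 1.16, 0.373 and 0.911 CPM in DTx-labelled libraries 5A, 6A and 7A and 0.0923 and 0 CPM in saline replicates 1 and 2. These values came from 22, 6 and 16 counts and from 2 and 0 counts. Rgs18 was thus tested through its DTx-labelled counts alone. Rgs1, with 0 and 17 counts in saline replicates 1 and 2, would not have passed the filter on saline counts alone either. Both are among the 7 of the list that were higher without overlap.

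**Figure D5:**
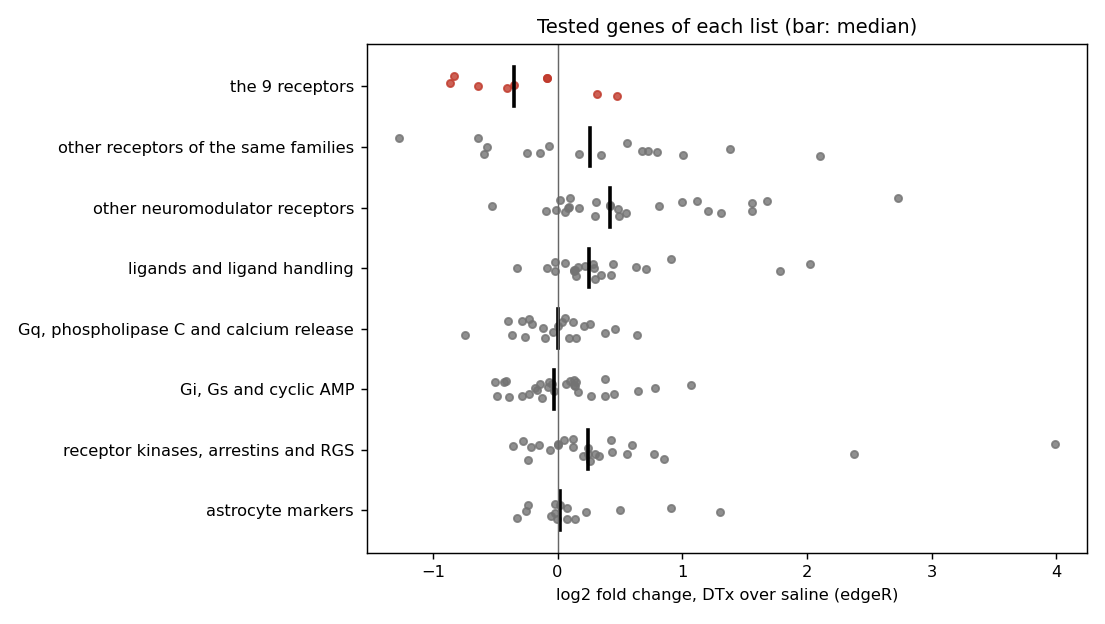
Log2 fold change (DTx-labelled over saline) of every tested gene in 8 lists, with 1 point per gene and a bar at each list's median. The median of the 9 receptors is -0.35, those of the other 7 lists, astrocyte markers among them, lie between -0.029 and 0.42, and no gene shown passed the threshold.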

How the data were processed

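The authors deposited raw read counts per gene, 1 column per library and unpooled. The submitters' processing notes list STAR 2.7.5c, featureCounts 2.0.1, edgeR 3.42.4, fastp 0.23.2, MultiQC 1.11 and FastQC 0.11.9, and name GRCm38 and mm10 as builds. Annotation and strand setting: not given in the sources used here. Saline columns were matched by the word Ctrl and their number. DTx columns have numbers absent from the labels and were matched to the group alone, and 1 further column of per-sample values was not used. Nothing states that libraries come from different animals, and the p-values cover only the spread among libraries, which may be technical. Each pair of libraries differed beyond sampling noise (the smallest chi-square per degree of freedom was 14.2, between DTx 5A and 6A, over genes with 20 or more counts).

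The counts were compared with edgeR 4.0.16 in R 4.3.3 (TMM scaling, filterByExpr with a minimum count of 10, robust quasi-likelihood F test, Benjamini-Hochberg adjustment over all 15532 genes tested, threshold 0.05, log2 fold change of DTx over saline, SE from the F statistic). Alternatives used DESeq2 1.42.0, limma-voom of limma 3.58.1, other scalings, filters, left-out libraries and marker covariates, and centred profiles used log2 CPM with a prior count of 2. The mean log2 fold changes of the edgeR fit were checked on counts simulated from its own dispersions with known changes. Those counts held no difference in sex-chromosome state or cell mixture. Exon lengths were the union of GENCODE M21 exons (GRCm38), which may differ from the authors' annotation. Positions and upstream windows came from RefSeq GRCm38.p6. The members and gene lists were chosen with earlier results of these data known. Named genes were the 9 members, up to 4 genes per list with the smallest p, and the 3 genes closest in profile to the 2 members of widest range; the marker genes printed were picked after seeing their values. A gene that this rule names is not reported here.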

Additional observations from a re-analysis of the deposited data

How the results depend on the processing

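The comparison rests on 3 against 2 libraries, and the size of change it could detect is not given. Under every alternative run, 0 of the 9 receptors passed the threshold, with adjusted p from 0.132 upward. Against 5 genes called in all, the count was 9 with no low-count filter, 111 with DESeq2 and 3 with the microglia marker covariate, and leaving out 1 library gave 5 to 13 (13 without DTx library 7A, 5 without any other). The median log2 fold change of the 9 receptors, -0.35, was -0.51 with scaling to the astrocyte markers, where the median of all genes shifted to -0.16 and the difference between the medians stayed at -0.34. It was -0.16 and -0.23 with the microglia and neuron marker covariates and -0.39 to -0.26 with 1 library left out. With the microglia covariate Adra2a, Ntsr2 and Adora1 turned to 0.13, -0.0098 and 0.15. With 1 library left out Adra2a ranged from -0.36 to 0.25 and Adora1 from -0.20 to 0.051. The other 6, Adra1a, Adra1b, Adrb1, P2ry1, Ednrb and Grm3, kept their direction in every alternative run. Covariates of oligodendrocyte and ependymal markers were chosen after seeing the data. The causes of these shifts were not tested. No paired analysis was possible because the DTx columns carry no replicate number of the labels.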
